A study of Mus musculus with 6 samples.

Results

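The 10 genes described here are markers of blood vessel endothelium together with the angiopoietins and their receptors: the ligands Angpt1 and Angpt2, the receptors Tek and Tie1, the junction and adhesion genes Cdh5, Pecam1 and Esam, the endothelial surface genes Plvap and Emcn, and Vwf. They were chosen by symbol, and all 10 were found among the 17794 genes of the expression table. RNA sequencing was done on whole corneas of mice, 3 libraries from animals given luteolin, a plant flavone, for 10 days and 3 libraries from animals given vehicle for 10 days. Both groups had first been exposed to benzalkonium chloride (BAC), a surfactant used to preserve eye drops whose application to the eye is an experimental model of dry eye, so vehicle-treated corneas are damaged tissue and not healthy ones. Undamaged corneas were not analysed here, and the labels give neither strain, age and sex nor whether the libraries came from separate animals. P-values therefore measure only the spread between these libraries, which may be technical.

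Blood vessels are lined by endothelial cells that hold together through junction proteins. Angpt1, secreted largely by cells around the vessel, activates the receptor tyrosine kinase Tek and favours quiet, tight vessels. Angpt2, released by endothelial cells, can oppose it and favours remodelling, while Tie1, a related receptor without a well-established ligand of its own, modulates Tek. The clear centre of a healthy cornea has no blood vessels, which end at the limbus, the border with the conjunctiva and sclera, and which can grow inward after injury.

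Depth was similar in all libraries, from 16084855 to 16469699 estimated counts. With edgeR's quasi-likelihood test on 13838 genes, 8157 or 58.9% had a Benjamini-Hochberg adjusted p under 0.05, and 30.4% were lower and 28.5% higher with luteolin. Of the called genes 51.6% were lower, or 63.6% when libraries were scaled by their totals alone. Libraries correlated at 0.970 to 0.991 within groups and 0.901 to 0.919 between groups (Pearson across genes on log2 CPM; genes are not independent replicates). The tissue label was checked on 10 corneal epithelial genes, among them Krt12 and Pax6, whose summed level was 77585 to 80345 CPM (counts relative to the scaled library total) with luteolin and 44727 to 52875 CPM with vehicle.

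Transcripts of vessel endothelium were lower in luteolin-treated corneas. Of the 10 genes, 9 fell by 4.67-fold to 9.05-fold, 0 rose, and Angpt2 did not pass the test. All 10 had enough reads to be tested, and the median log2 fold change (luteolin minus vehicle) was -2.70, against -0.02 over all tested genes. In the same comparison 30.4% of all tested genes were lower with an adjusted p under 0.05, and 6.89% were lower by more than 2 on the log2 scale, as 9 of the 10 genes were. Every luteolin library was below every vehicle library for 9 of the 10, and for 33.7% of all tested genes. In bulk tissue, fewer vessel cells and less RNA per vessel cell cannot be told apart.

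**Figure D1:**
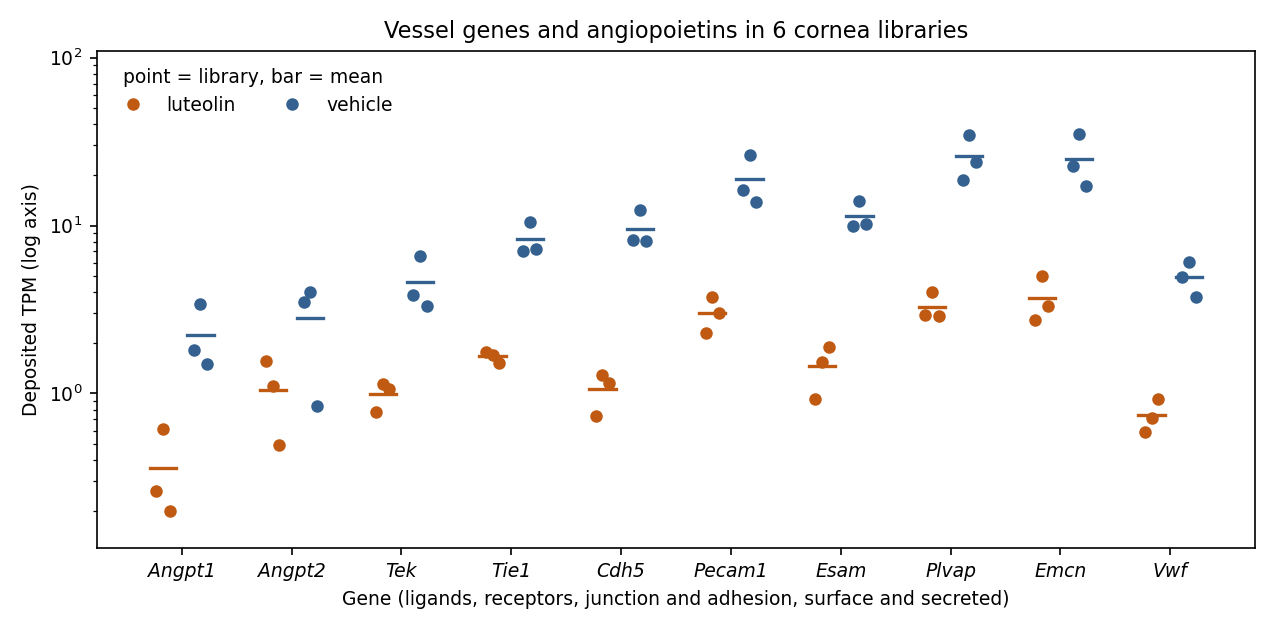
Deposited TPM (an abundance scaled for transcript length; log axis) of the 10 genes, with luteolin to the left of vehicle for each gene, 1 point per library and a bar at the group mean. The groups are separate for every gene except Angpt2, where luteolin 1 (1.56 TPM) and luteolin 2 (1.11 TPM) lie above vehicle 3 (0.84 TPM).

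Promoter sequences were available only for Tek, Tie1 and Emcn, 3 of the 10 genes, and all 3 are shown. The windows are chr4:94739039-94739288 (plus strand), chr4:118489850-118490099 (minus strand) and chr3:137340828-137341077 (plus strand), each the 250 bases before the annotated start, from RefSeq on GRCm38.p6, which is not the build named for the deposited table (mm9). Capitals mark AGGAAG or its reverse complement CTTCCT, a form of the site recognised by ETS family factors. Some of these factors are known for their role in endothelial genes.
Tek: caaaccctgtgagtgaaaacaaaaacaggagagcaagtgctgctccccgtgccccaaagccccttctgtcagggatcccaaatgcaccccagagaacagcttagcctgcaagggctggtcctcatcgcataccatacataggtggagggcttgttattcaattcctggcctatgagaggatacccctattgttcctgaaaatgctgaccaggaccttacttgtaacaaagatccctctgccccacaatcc
Tie1: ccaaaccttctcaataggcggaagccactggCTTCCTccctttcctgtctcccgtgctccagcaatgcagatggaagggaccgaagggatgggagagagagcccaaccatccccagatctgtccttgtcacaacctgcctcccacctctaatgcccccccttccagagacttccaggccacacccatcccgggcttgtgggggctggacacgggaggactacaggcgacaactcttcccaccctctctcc
Emcn: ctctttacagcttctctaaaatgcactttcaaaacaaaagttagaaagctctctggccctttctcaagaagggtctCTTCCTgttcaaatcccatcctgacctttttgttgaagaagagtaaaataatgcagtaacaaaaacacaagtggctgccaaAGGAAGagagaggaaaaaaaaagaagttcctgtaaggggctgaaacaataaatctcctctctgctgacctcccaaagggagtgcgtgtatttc

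AGGAAG or CTTCCT was present 2 times in the Emcn window, 1 time in the Tie1 window and 0 times in the Tek window. The same letters were in 29.6% of 32536 distinct mouse promoter windows of the same length on either strand. Shorter or other forms of the ETS site were not counted, so 0 does not mean that the Tek window lacks them. The letters CCACCC or GGGTGG, a core recognised by Krüppel-like factors, were present 1 time in the Tie1 window and in 28.1% of all windows. AGATAA, a core of zinc finger factors of blood and vessel cells, was in 9.97% of all windows and in none of these 3 on either strand. TATAAA, the core of a common promoter element, was in 12.3% of all windows and likewise in none of these 3. A match describes the letters alone.

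Of the ligands, Angpt1 fell and Angpt2 did not pass the test. Angpt1 (gene ID 11600), the agonist of Tek, was at 0.645, 1.43 and 0.450 CPM in luteolin 1, 2 and 3, against 4.09, 7.73 and 3.52 CPM in vehicle 1, 2 and 3. The groups did not overlap, with luteolin 2 and vehicle 2 the highest library of each. The log2 fold change was -2.59 (SE 0.486, edgeR adjusted p = 0.00320), a 6.03-fold decrease. With a library left out it ranged from 4.49-fold without vehicle 2 to 9.28-fold without luteolin 2 (edgeR adjusted p at most 0.0170). It rests on few reads, from 7 to 22 counts in luteolin libraries and 59 to 132 in vehicle libraries.

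Angpt2 (gene ID 11601), the context-dependent antagonist of Tek, was at 3.42, 2.47 and 1.09 CPM in luteolin 1, 2 and 3, against 7.71, 8.96 and 1.91 CPM in vehicle 1, 2 and 3. Vehicle 3 was low and lay below 2 of the 3 luteolin libraries, so the groups overlapped. The log2 fold change was -1.41 (SE 0.604) with an edgeR adjusted p of 0.0790 (0.00770 to 0.351 in other settings). Leaving out vehicle 3 gave -1.85 (adjusted p = 0.00812), and DESeq2 called it on all 6 libraries (adjusted p = 0.0330). With the replicate number as a block, edgeR also called it (-1.33, adjusted p = 0.00770). Over all tested genes, though, deviations did not match by replicate number. The call for Angpt2 thus depended on vehicle 3, on the tool and on the block.

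The ratio of Angpt2 to Angpt1, which bind the same receptor, was computed per library from TPM with 0.1 added to both. The log2 ratio was 2.21, 0.77 and 0.98 in luteolin 1, 2 and 3, against 0.93, 0.24 and -0.76 in vehicle 1, 2 and 3. Luteolin 2 lay below vehicle 1 and the groups overlapped. The mean was 1.32 ± 0.78 with luteolin and 0.14 ± 0.85 with vehicle (SD, n = 3 each), a difference of 1.18 that an exact two-sided permutation test did not separate from the spread between libraries (p = 0.20, where the smallest p of 3 against 3 is 0.10). The difference was 0.73 without vehicle 3 and 0.73 without luteolin 1.

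**Figure D2:**
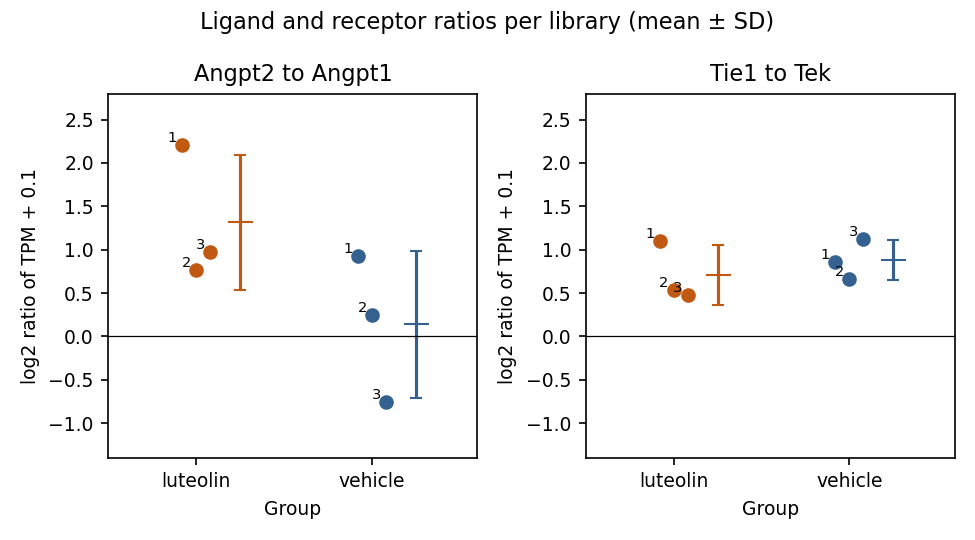
Log2 ratio of TPM + 0.1 for Angpt2 to Angpt1 (left) and Tie1 to Tek (right), with luteolin left of vehicle, 1 point per library numbered by replicate and the mean ± SD beside the points. The groups overlap in both panels, and the Angpt2 to Angpt1 ratio was highest in luteolin 1 (2.21) and lowest in vehicle 3 (-0.76).

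Both receptors fell, and by like amounts. Tek (gene ID 21687) was at 2.26, 3.38 and 3.15 CPM in luteolin 1, 2 and 3, against 11.4, 19.8 and 9.95 CPM in vehicle 1, 2 and 3. Its groups were well apart, and Tek was 4.67-fold lower (log2 fold change -2.22 with SE 0.308, edgeR adjusted p = 0.000849). Tie1 (gene ID 21846) was at 4.26, 4.16 and 3.73 CPM in luteolin libraries 1 to 3, against 17.1, 25.5 and 18.1 CPM in vehicle libraries 1 to 3. The luteolin libraries lay close together, and the log2 fold change was -2.32 (SE 0.186, adjusted p = 0.000114), 4.98-fold lower. The log2 ratio of Tie1 to Tek was 0.71 ± 0.34 with luteolin and 0.88 ± 0.23 with vehicle (SD, n = 3 each), a difference of -0.17 that was within the spread between libraries (exact two-sided permutation test, p = 0.50).

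The junction and adhesion genes held the largest decrease of the 10. Cdh5 (gene ID 12562), the cadherin of endothelial adherens junctions, was at 1.81, 3.25 and 2.90 CPM in luteolin 1, 2 and 3, against 20.4, 31.0 and 20.7 CPM in vehicle 1, 2 and 3. The lowest vehicle library stood far above the highest luteolin library, and the gene fell by 3.18 on the log2 scale (SE 0.261, edgeR adjusted p = 0.000120). Pecam1 (gene ID 18613), an adhesion molecule of endothelial cells that leukocytes and platelets also carry, was at 4.64, 7.34 and 6.11 CPM with luteolin and at 32.4, 53.1 and 28.2 CPM with vehicle. It was 6.28-fold lower (log2 fold change -2.65, SE 0.281, adjusted p = 0.000291). Esam (gene ID 69524), an immunoglobulin-like adhesion molecule of endothelial tight junctions that platelets also carry, was at 0.967, 1.62 and 1.99 CPM with luteolin and at 10.3, 14.7 and 10.9 CPM with vehicle. It was 7.79-fold lower (log2 fold change -2.96, SE 0.280, adjusted p = 0.000188). Luteolin 1 was the lowest library of all 3 genes.

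The surface genes and Vwf fell by similar amounts. Plvap (gene ID 84094), which forms the diaphragms of fenestrae and caveolae in permeable capillaries, was at 3.35, 4.68 and 3.41 CPM in luteolin 1, 2 and 3, against 21.4, 40.4 and 28.3 CPM in vehicle 1, 2 and 3. It was 7.87-fold lower (log2 fold change -2.98, SE 0.267, edgeR adjusted p = 0.000156). Emcn (gene ID 59308), a sialomucin of capillary and venous endothelium, was at 2.13, 3.90 and 2.64 CPM with luteolin and at 17.3, 27.2 and 13.6 CPM with vehicle, and was 6.70-fold lower (log2 fold change -2.74, SE 0.324, adjusted p = 0.000441). Vwf (gene ID 22371), the clotting protein that endothelial cells store and secrete, was at 3.22, 3.96 and 5.21 CPM with luteolin and at 27.5, 34.3 and 21.5 CPM with vehicle. It was 6.71-fold lower (log2 fold change -2.75, SE 0.231, adjusted p = 0.000131). For none of the 3 did the groups overlap. With a test on log2(FPKM + 1), which compresses low values, the median of the 10 genes was -1.95 and the same 9 genes passed.

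**Figure D3:**
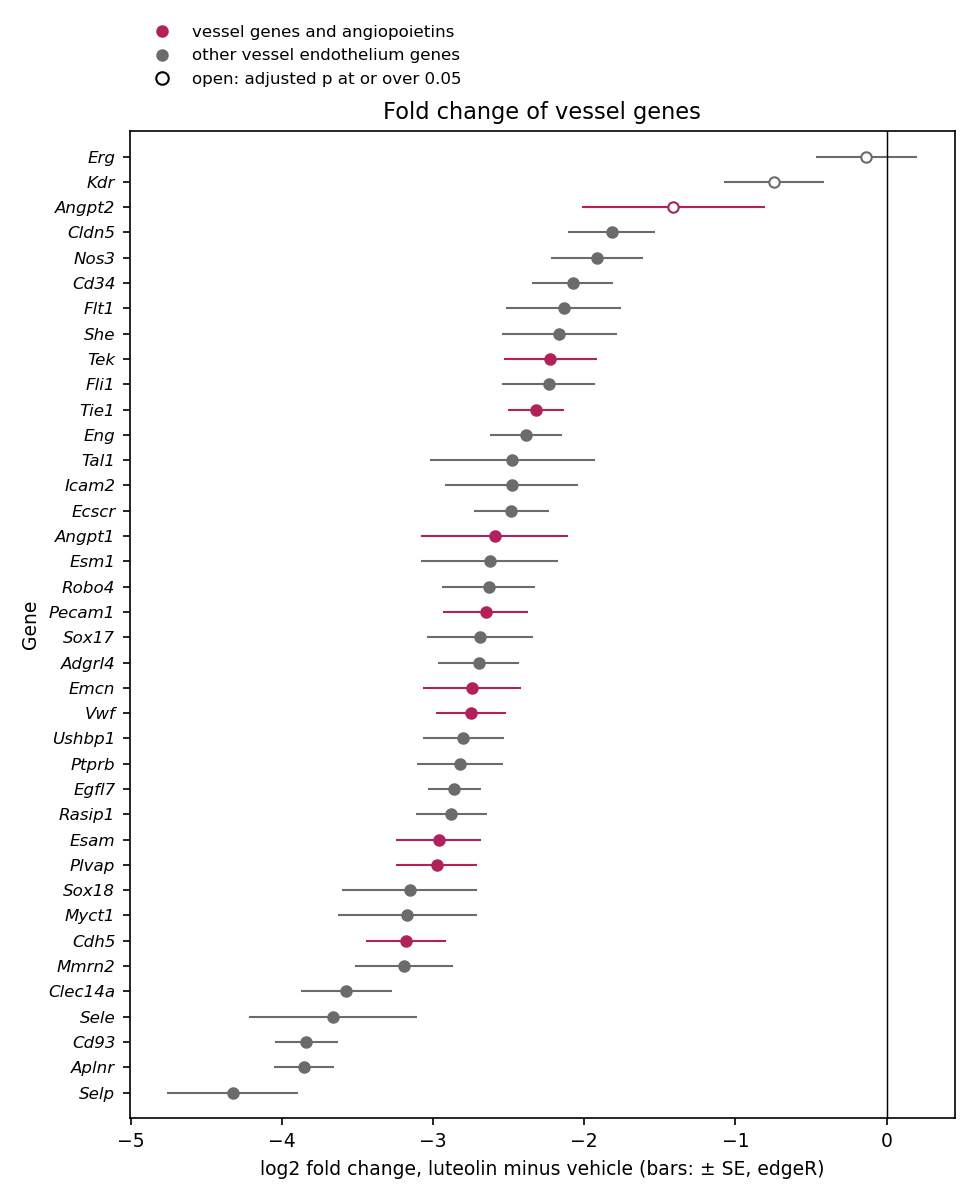
Log2 fold change, luteolin minus vehicle (x axis, bars ± SE from edgeR), of the 10 vessel genes and angiopoietins (magenta) and of 28 other vessel endothelium genes (grey), ordered by value; open points did not pass. Of the magenta genes, Angpt2 alone is open (-1.41), and the others lie between -3.18 and -2.22, inside the range of the grey genes.

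Levels between genes were compared per transcript length, on the TPM scale. In luteolin corneas the order ran from Emcn at 3.69 ± 1.16 TPM, Plvap at 3.28 ± 0.635 and Pecam1 at 3.01 ± 0.720 through Tie1 (1.66 ± 0.129 TPM), Esam (1.45 ± 0.481), Cdh5 (1.06 ± 0.291) and Angpt2 (1.05 ± 0.537) to Tek at 0.990 ± 0.195, Vwf at 0.740 ± 0.167 and Angpt1 at 0.357 ± 0.221 TPM (SD, n = 3). In luteolin corneas Pecam1 and Tie1 were the only neighbours whose ranges did not overlap. In vehicle corneas Plvap stood highest at 25.8 ± 8.23 TPM, followed by Emcn at 24.99 ± 9.19 and Pecam1 at 18.8 ± 6.61 TPM, Esam at 11.4 ± 2.30, Cdh5 at 9.57 ± 2.44 and Tie1 at 8.28 ± 1.89 TPM (SD, n = 3). Below them came Vwf at 4.91 ± 1.16, Tek at 4.59 ± 1.76, Angpt2 at 2.8 ± 1.72 and Angpt1 at 2.23 ± 1.025 TPM. Among neighbours in this order, only Tie1 and Vwf had ranges that did not overlap. Emcn, Plvap and Pecam1 were the 3 highest and Angpt1 the lowest in both groups.

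Among luteolin libraries, luteolin 2 was the highest for 6 of the 10 genes and luteolin 1 the lowest for 7, while Esam and Vwf were highest in luteolin 3 and Tie1 and Angpt2 in luteolin 1. Among vehicle libraries, vehicle 2 was the highest for 10 of the 10 genes and for 27 of 28 other vessel endothelium genes, and vehicle 3 the lowest for 6 of the 10. The average deviations of the 10 genes from the group mean of log2 CPM were -0.20, 0.28 and -0.07 in luteolin 1, 2 and 3, and -0.12, 0.50 and -0.38 in vehicle 1, 2 and 3. The keratocyte list, genes of stromal cells, deviated by 0.21, 0.49 and -0.70 in luteolin libraries 1 to 3 and by -0.08, 0.89 and -0.81 in vehicle libraries 1 to 3. The skeletal muscle list deviated by -1.08, -1.39 and 2.48 in luteolin libraries and by 1.34, 2.11 and -3.45 in vehicle libraries. Without vehicle 2 the same 9 genes passed with a median log2 fold change of -2.37. With the mean of the muscle list as a covariate 9 genes were lower (median -2.51), and with that of the keratocyte list also 9 (median -2.49). Each group had 3 libraries, and some keratocyte genes were themselves called between the groups. These fits therefore cannot separate the share of a tissue from treatment, and the part of either tissue was not tested.

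Angpt2 lay farthest from the mean profile. Its deviations from the group mean of log2 CPM were 0.66, 0.21 and -0.88 in luteolin 1, 2 and 3, and 0.58, 0.79 and -1.37 in vehicle 1, 2 and 3. A list of 6 corneal endothelium genes, among them Slc4a11 and Col8a2, deviated by 0.50, 0.17 and -0.67 in luteolin libraries and by 0.15, 0.30 and -0.45 in vehicle libraries. The keratocyte list, whose values are given above, was likewise high in luteolin 1, luteolin 2 and vehicle 2 and low in luteolin 3 and vehicle 3. The likeness is thus not particular to the corneal endothelium list. The corneal endothelium is the single cell layer at the back of the cornea and is no vessel lining. The part of either tissue in the level of Angpt2 was not tested. The root mean square distance of Angpt2 from the mean centred profile of the 8 genes other than the angiopoietins was 1.08 on the log2 scale, against 0.41 for Angpt1 and 0.08 for Pecam1, the nearest.

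**Figure D4:**
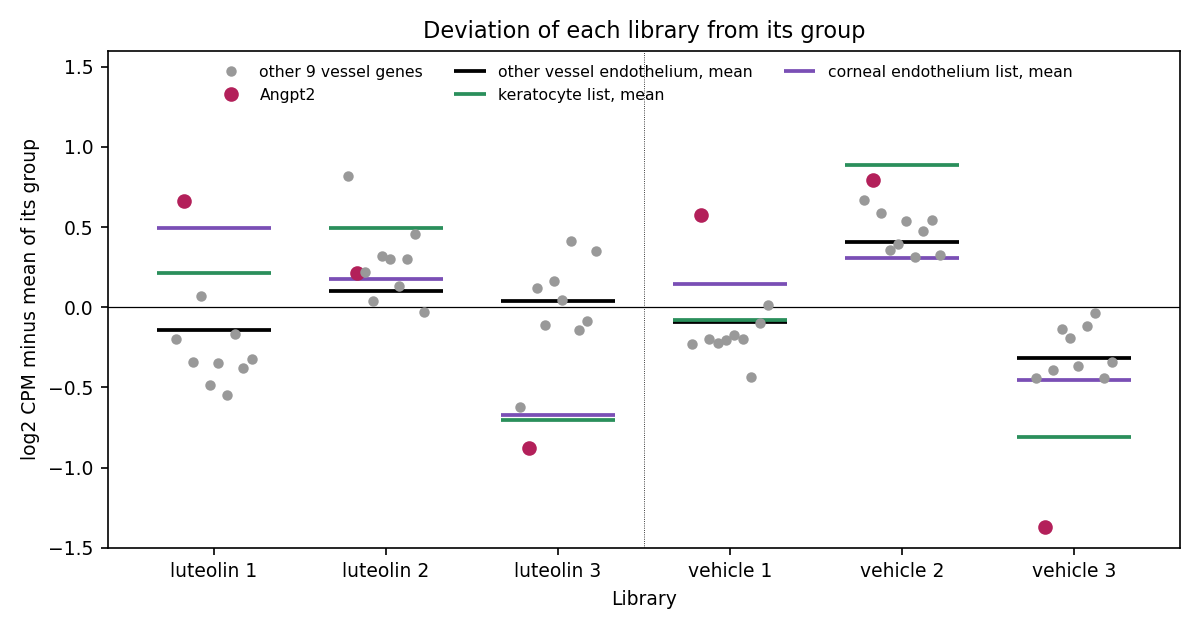
Deviation of log2 CPM from the mean of its group (y axis) in each library (x axis, luteolin 1 to 3, then vehicle 1 to 3) for Angpt2 (magenta) and the other 9 genes (grey points), with the means of 3 gene lists as short horizontal lines. All 10 genes are above 0 in vehicle 2, and Angpt2 has the lowest point in luteolin 3 (-0.88) and in vehicle 3 (-1.37).

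Other genes of vessel endothelium were lower as well. Of 28 tested, 26 fell and 0 rose, while 2 missed the threshold, beside 30.4% of all tested genes lower and 28.5% higher. Their median log2 fold change was -2.66, beside -2.70 for the 10 genes. Aplnr, the apelin receptor, averaged 0.905 ± 0.176 CPM with luteolin and 13.2 ± 1.45 CPM with vehicle (SD, n = 3 each), 14.4-fold lower. Cd93, a C-type lectin-like receptor of endothelial and myeloid cells, averaged 2.498 ± 0.433 CPM with luteolin and 35.8 ± 7.74 CPM with vehicle, 14.3-fold lower. The lectin-like gene Clec14a was 11.9-fold lower, Rasip1, a regulator of vessel tube formation, 7.35-fold, the secreted Egfl7 7.26-fold and Ushbp1 6.96-fold. The 2 that did not pass were Kdr, the main VEGF receptor (log2 fold change -0.74, edgeR adjusted p = 0.0859), and Erg, an ETS factor (-0.13, adjusted p = 0.753). Both were named for not passing, after their values were seen.

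The 10 genes were also set against the mean log2 CPM of these 28 genes in the same library, as a description with no test. Cdh5 stood 0.32, 0.88 and 0.78 above that mean in luteolin 1, 2 and 3, against 1.18, 1.28 and 1.42 above it in vehicle 1, 2 and 3, a difference of -0.63. The largest difference in the other direction was that of Angpt2 at 1.27, with overlapping groups. The other 8 genes differed by -0.40 to 0.37.

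A further list held other genes linked to Tek and Tie1 signalling: ligands, adaptors, kinases, transcription factors and the sheddase Adam17. Of 16 tested, 5 fell, 8 rose and 3 did not pass (median 0.14), beside 30.4% of all tested genes lower and 28.5% higher. Dok2, an adaptor that binds Tek and is also expressed by leukocytes, fell 6.09-fold to 0.753 ± 0.295 CPM with luteolin, against 4.63 ± 0.166 CPM with vehicle (SD, n = 3 each). Klf2, a transcription factor of endothelial cells under flow that leukocytes also express, was 3.39-fold lower. The kinase Akt1 was 1.27-fold lower, while the adaptor Grb7 was 1.86-fold and Pik3r1, the regulatory subunit of phosphoinositide 3-kinase, 1.53-fold higher. These 3 genes averaged 151 to 161 CPM with luteolin, against 2.93 CPM for Tek. Which cells of the cornea their transcripts came from was not tested. The ligand Angpt4 had 0 or 1 counts in luteolin libraries and 5 to 7 in vehicle libraries and was too low to test, and Grb14 had 0 to 3 counts with luteolin and 9 to 28 with vehicle and was not tested.

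Among VEGF ligands and coreceptors 5 of 7 fell, 1 rose and 1 did not pass (median -1.48), beside 30.4% of all tested genes lower and 28.5% higher. Vegfa, the main growth factor of blood vessels, averaged 17.2 ± 4.51 CPM with luteolin and 48.0 ± 2.04 CPM with vehicle (SD, n = 3 each), 2.78-fold lower. The coreceptors Nrp2 and Nrp1 were 6.71-fold and 3.03-fold lower, and Vegfc, a growth factor of lymphatic vessels whose counts had decimals in 4 libraries, was 2.71-fold lower.

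Mural cells, the pericytes and smooth muscle cells that wrap vessels, showed lower transcripts too. Of 9 tested genes 7 fell, 1 rose and 1 did not pass (median -2.36), beside 30.4% of all tested genes lower and 28.5% higher. Rgs5, a pericyte marker, averaged 13.98 ± 2.75 CPM with luteolin and 140.9 ± 40.9 CPM with vehicle (SD, n = 3 each), 10.1-fold lower. Mcam, shared by mural and endothelial cells, was 8.43-fold and the channel subunit gene Abcc9 6.31-fold lower, while the receptor gene Notch3, also expressed outside mural cells, was 1.81-fold higher. The list summed to 278.1 to 290.7 CPM with luteolin and 326.6 to 490.3 CPM with vehicle, most of the luteolin sum being Notch3 at 239 ± 4.08 CPM.

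Of 6 lymphatic endothelium genes 5 fell and 1, Mmrn1, was higher, beside 30.4% of all tested genes lower and 28.5% higher. Ccl21a, a chemokine of lymphatic vessels, was 3.97-fold lower, with decimals in its counts in 6 libraries, so that its level is uncertain where reads were split with near-identical copies. Flt4, a receptor of lymphatic growth factors, was 3.33-fold lower, and Pdpn, which epithelial and stromal cells also express, 1.94-fold. The number of lower genes was 3 without luteolin 1 and 3 without vehicle 1. Mmrn1 (gene ID 70945), a multimeric protein of platelets and endothelial cells, went the other way, with 74, 68 and 88 counts in luteolin libraries and 0 counts in each vehicle library. It was at least 84.1-fold higher with luteolin, against a floor of 3 counts over the vehicle group, which covers counting error only, or at least 55.9-fold without vehicle 1, 56.0-fold without vehicle 2 and 56.5-fold without vehicle 3. The labels give no strain, and with no reads in any vehicle library a difference in genetic background between the groups cannot be told apart from treatment. The Mmrn1 value is therefore a difference between these libraries, and the same limit applies to the comparison as a whole.

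**Figure D5:**
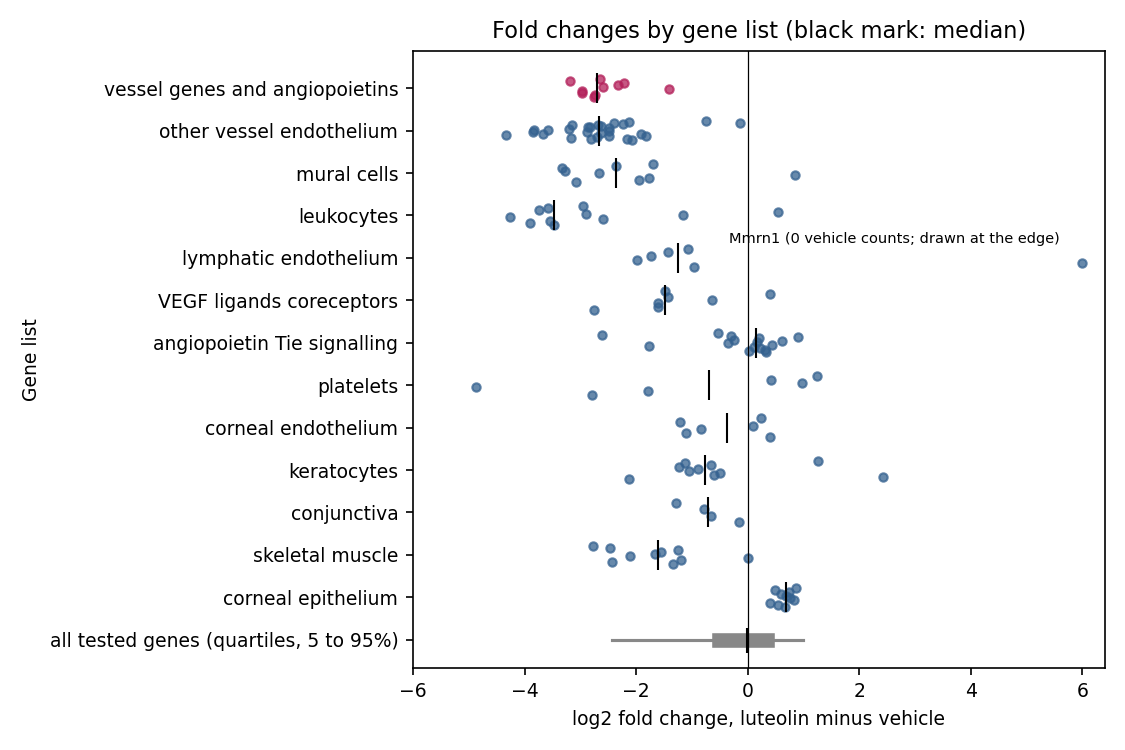
Log2 fold change, luteolin minus vehicle (x axis), of the tested genes of each list (1 point per gene, black mark at the median), with quartiles (thick bar) and the 5th to 95th percentile (line) of all tested genes in the bottom row; Mmrn1 is drawn at the edge. The vessel genes (median -2.70), the other vessel endothelium genes (-2.66) and the leukocyte genes (-3.46) lie to the left of most tested genes, whose median is -0.02.

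Other cell types that carry some of these genes were measured in the same libraries. The counts below stand beside 30.4% of all tested genes lower and 28.5% higher. Of 11 leukocyte genes 10 fell and Itgam rose (log2 fold change 0.54), with a median of -3.46. The list summed to 212.9 to 260.5 CPM with luteolin and 307.2 to 443.1 CPM with vehicle. Most of the luteolin sum was Itgam, at 205 ± 19.7 CPM with luteolin and 141 ± 18.5 CPM with vehicle (SD, n = 3 each). Ptprc, the pan-leukocyte gene, was 7.77-fold lower, the tetraspanin Cd53 13.3-fold, Coro1a, an actin-binding protein gene, 11.03-fold and Tyrobp, a myeloid signalling adaptor gene, 14.98-fold lower, beside 6.28-fold for Pecam1, which leukocytes share. Platelet genes went both ways, 3 lower, 2 higher and 1 not passing of 6 tested, with sums of 26.2 to 27.9 CPM with luteolin and 34.5 to 38.2 CPM with vehicle. Pf4 was 29.2-fold lower, Itgb3 3.47-fold and P2ry12 6.94-fold lower and Itga2b 2.37-fold higher. Whether the transcripts of these genes came from platelets or from other cells was not tested. The platelet genes Gp9 and Gp5 had 0 or 1 counts in every library, and the globin genes Hba-a1, Hba-a2, Hbb-bs and Hbb-bt had 0 to 16 counts. Alas2, a heme synthesis enzyme gene of red cell precursors, was 1.88-fold higher. The part of leukocytes in the level of Pecam1 was not tested.

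Neighbouring tissue was gauged by 4 further lists, whose counts stand beside 30.4% of all tested genes lower and 28.5% higher. Of 4 conjunctiva genes tested 3 were lower (median -0.72), all of them keratin genes: Krt4 (2.44-fold), Krt13 (1.71-fold) and Krt19 (1.58-fold). The other gene, Agr2, did not pass (log2 fold change -0.16, edgeR adjusted p = 0.688), and Spdef, with 1 to 4 counts, was not tested. The list summed to 1737 to 2688 CPM with luteolin and 4083 to 4404 CPM with vehicle. Agr2 averaged only 4.31 CPM with luteolin and 4.82 CPM with vehicle. Keratocyte genes summed to 2274 to 4853 CPM with luteolin and 3540 to 9302 CPM with vehicle, and 2 of 10 were lower and 1 higher (median -0.77), with 0 lower without luteolin 1, luteolin 3, vehicle 1 or vehicle 2 and 5 lower without vehicle 3. Of 6 corneal endothelium genes 2 were lower and 1 higher (median -0.36), with sums of 240.6 to 422.2 CPM with luteolin and 268.4 to 410.0 CPM with vehicle; 0 were lower without luteolin 3, vehicle 1 or vehicle 2, and 1 without luteolin 2. Skeletal muscle genes summed to 17.4 to 93.5 CPM with luteolin and 15.1 to 213.9 CPM with vehicle, and 0 of 10 passed, or 1 without luteolin 3 and 4 without vehicle 3. The limbus, where vessels lie, borders the conjunctiva; the part of how the tissue was cut in the level of vessel genes was not tested.

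Outside all lists, 5 genes lay nearest to the mean profile of the 8 genes other than the angiopoietins, by root mean square distance of centred log2 CPM over the 6 libraries. They were Klrb1b, a lectin-like receptor gene (distance 0.09), Ndnf, a secreted neurotrophic protein gene (0.09), Ifitm3, an interferon-induced membrane protein gene (0.11), C130074G19Rik (0.11) and Slc6a4, the serotonin transporter gene (0.11). Ndnf averaged 1.59 ± 0.269 CPM with luteolin and 10.3 ± 2.28 CPM with vehicle (SD, n = 3 each). Klrb1b stood at 0.215 ± 0.0749 CPM with luteolin and 1.90 ± 0.690 CPM with vehicle, near the limit of what could be counted.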

How the data were processed

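Whole corneas were frozen, RNA was extracted with Trizol and libraries were made with an Illumina TruSeq kit, per the labels' protocols. Bowtie2 2.2.5, RSEM 1.2.12 and build mm9 are listed in the submitters' processing notes. Annotation, strand use and what each tool did are not stated there, so antisense or overlapping genes may share reads. The authors deposited estimated counts, normalized read counts (a signal scaled by 1 factor per library, not used here), FPKM and TPM, per the file headers. The counts of all 10 genes were whole (within 0.001) in every library. The 8 columns of group averages were not used.

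Rounded counts went into edgeR 4.0.16 (R 4.3.3): filterByExpr (minimum count 10, total 15) kept 13838 genes and removed 3956, TMM factors scaled the libraries, and luteolin was set against vehicle by the quasi-likelihood test, with Benjamini-Hochberg adjustment over all tested genes and a threshold of 0.05. SE is the log2 fold change divided by the square root of F. Log2 CPM used a prior count of 2. DESeq2 1.42.0 and limma 3.58.1 served as alternatives, and the code was tested on simulated data. No 2 libraries of a group were duplicates: a chi-square of their counts over its degrees of freedom was 5.52 to 26.4. The genes, lists and tests were chosen with earlier results of these data known. Genes were named by a rule: all 10, from each further list the 2 tested genes with the smallest p (4 where over 3 passed, 6 for other vessel endothelium), and the 5 nearest profiles. Those of the keratocyte, corneal endothelium, muscle and corneal epithelium lists are given as counts or sums. Angpt4, Grb14, Itgam, Klf2, Adam17, Kdr, Erg, Slc4a11, Col8a2, Krt19, Agr2 and the genes at or near 0 counts were named after their values were seen. The comparison with the mean of the 28 other vessel genes was added then. Over all tested genes, deviations from the group mean did not match by replicate number.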

Additional observations from a re-analysis of the deposited data

How the results depend on the processing

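Across 18 alternatives (DESeq2, 3 other scalings, 2 other filters, robust dispersion, the replicate block, limma-trend on FPKM with a pseudocount of 1 or 0.1, each library left out, and 2 covariates added after seeing the data), none of the 180 values of the 10 genes changed direction. The number lower was 9 or 10, the tenth being Angpt2 with DESeq2, without vehicle 3 and with the block. Of neighbouring lists, lower keratocyte genes numbered 0 to 7 and lower corneal endothelium genes 0 to 3. The other vessel endothelium list had 25 to 27 lower genes. Scaling by library sizes alone put the all-gene median at -0.13 on the log2 scale and that of the 10 genes to -2.81. Over all tested genes, deviations did not match by replicate number (correlations for numbers 1, 2 and 3 of -0.15, 0.03 and 0.01). Single lists went either way. Leukocyte genes deviated by -0.21, 0.41 and -0.20 in luteolin 1, 2 and 3 and by -0.24, 0.44 and -0.21 in vehicle 1, 2 and 3. The skeletal muscle list had opposite signs for each number. With the replicate block the count of all genes called was 7934, against 8157, and 10 of the 10 genes were lower. Angpt2 then had a log2 fold change of -1.33 (edgeR adjusted p = 0.00770). A paired exact test of the Angpt2 to Angpt1 ratio gave p = 0.25, the smallest 3 pairs allow, and that of Tie1 to Tek p = 0.75. Leaving out a library gave 0.73 to 1.57 for the Angpt2 to Angpt1 difference and -0.37 to -0.05 for Tie1 to Tek. Low counts of Angpt1 with luteolin limit its precision.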
